A study of Mus musculus with 6 samples.

Results

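Pericyte and mural cell markers are genes used to recognise the cells that wrap small vessels (pericytes) and larger ones (vascular smooth muscle). The 6 genes described here, Pdgfrb, Rgs5, Notch3, Cspg4, Mcam and Abcc9, were taken by symbol from the deposited count table. All 6 were found among its 15159 genes, and all 6 passed the filter on low counts, among 14758 genes tested. The study compared mouse heart cells of embryonic day 18.5 (C57BL/6 x 129S4/SvJae) that carried an inducible transgene for wild-type histone H3.3 (H3WT) or for H3.3 with methionine in place of lysine 9 (H3K9M). The methylated form of this lysine marks silenced chromatin, and the mutant is known to lower its level in cells. Both groups received doxycycline at 2 µg/ml on days 0 to 2 and grew for 4 days on soft silicone (PDMS) of 13 kPa. Polyadenylated RNA of 3 libraries per group was sequenced. The sources used here do not give the promoter that drives the transgene, nor whether libraries of 1 group stem from different embryos. The p-values therefore cover the spread among libraries, and how much of it lies between embryos is not known. H3WT replicate 1 differed from the other H3WT libraries in sex-linked genes, as given below.

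Pericytes are recruited to new vessels by platelet-derived growth factor B from endothelial cells, which acts on the receptor PDGFRβ, encoded by Pdgfrb. NOTCH3 is the Notch receptor of mural cells, Cspg4 encodes the proteoglycan NG2, and Mcam encodes CD146, an adhesion molecule that endothelial and smooth muscle cells also carry. Rgs5 encodes a regulator that shortens G protein signals, and Abcc9 the sulfonylurea receptor SUR2, the regulatory subunit of a potassium channel gated by ATP. SUR2 is found in cardiomyocytes as well as in pericytes and smooth muscle, and PDGFRβ in cultured fibroblasts as well. The libraries were not made from sorted mural cells, and in RNA of mixed cells a lower number of cells of a type cannot be told apart from less RNA per cell.

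The sequences before the starts of 4 of these genes are shown to describe their content of CG, the dinucleotide at which DNA is methylated. Those of Mcam and Pdgfrb are not reported here. The 4 sequences come from RefSeq (GRCm38.p6), read 5′ to 3′ on the gene's strand, and end before the first annotated exon base. Capitals mark each CG.
Abcc9, chr6:142702316-142702524, minus strand: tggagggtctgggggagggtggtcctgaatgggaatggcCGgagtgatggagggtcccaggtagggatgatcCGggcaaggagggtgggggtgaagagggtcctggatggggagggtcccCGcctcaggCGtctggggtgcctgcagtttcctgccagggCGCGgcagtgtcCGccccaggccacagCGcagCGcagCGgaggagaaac
Cspg4, chr9:56864854-56865032, plus strand: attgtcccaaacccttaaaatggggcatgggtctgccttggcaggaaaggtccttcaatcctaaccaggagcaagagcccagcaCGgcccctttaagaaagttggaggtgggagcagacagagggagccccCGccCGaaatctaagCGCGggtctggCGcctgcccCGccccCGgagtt
Notch3, chr17:32166891-32167140, minus strand: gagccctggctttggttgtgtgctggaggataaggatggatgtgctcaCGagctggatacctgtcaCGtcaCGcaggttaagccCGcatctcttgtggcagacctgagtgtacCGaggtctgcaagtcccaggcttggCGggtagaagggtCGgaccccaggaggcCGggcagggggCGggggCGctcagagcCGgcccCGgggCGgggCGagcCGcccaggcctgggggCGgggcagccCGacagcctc
Rgs5, chr1:169655251-169655500, plus strand: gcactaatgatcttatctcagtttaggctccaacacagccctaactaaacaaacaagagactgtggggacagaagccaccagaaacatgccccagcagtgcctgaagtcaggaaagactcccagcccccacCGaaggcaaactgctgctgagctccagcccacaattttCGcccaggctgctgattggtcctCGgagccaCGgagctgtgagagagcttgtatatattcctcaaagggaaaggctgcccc

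The Notch3 sequence held 17 CG in 250 bases, and 23.5% of 32851 promoter sequences cut to the same length held as many or more. The Rgs5 sequence, of the same length, held 4, against a median of 6, and 62.2% of promoters held as many or more. Abcc9 had 10 CG in 209 bases (31.1% held as many or more) and Cspg4 had 8 in 179 bases (30.8%). The GC box GGGCGG, searched on both strands, occurred 4 times before Notch3, 2 times before Cspg4, 1 time before Abcc9 and not before Rgs5. Of promoters cut to 250 bases, 32.7% held it, and of those cut to 209 and 179 bases 26.5% and 20.9%. The letters TGGGAA, the core bound by the Notch partner RBPJ, occurred 1 time before Abcc9 (18.6% of promoters of that length) and in none of the other 3 sequences. The E-box CANNTG and the letters TATAAA occurred in none of the 4 windows, while 66.2% and 12.4% of promoters of 250 bases held them. These matches describe the letters alone, and methylation was not measured.

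The whole genes lie, on GRCm38 (GENCODE M21), on chromosome 1 at 169655501 to 169695813 (Rgs5), chromosome 17 at 32120820 to 32166852 (Notch3), chromosome 9 at 56865033 to 56899870 (Cspg4) and at 44134469 to 44142727 (Mcam), and chromosome 6 at 142587862 to 142702315 (Abcc9). Of these, Notch3 and Abcc9 run on the minus strand. Exons of the opposite strand overlap 6.03% of the exon bases of Notch3 (Gm17276), 1.89% of those of Abcc9 (5330439B14Rik) and 0.507% of those of Mcam (Gm10687). The sources used here do not give the strand setting of the counting, so reads from those stretches cannot be assigned to one strand. No member shared an identical row of counts with another gene.

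The libraries held 55550379 to 67994773 counts. Levels are given in CPM, read counts normalised to library size with TMM factors, and changes as log2 fold changes of H3K9M over H3WT from edgeR's quasi-likelihood test, with p-values adjusted over all 14758 genes (threshold 0.05). In that test 138 genes were higher and 155 lower in H3K9M, together 1.99% of genes. The cardiomyocyte genes Myh6 and Tnnt2 were at 13378 to 17390 and 5646 to 6187 CPM over the 6 libraries, so markers of the labelled heart origin were abundant. The titles of replicate 2 in both groups lack the word Soft, and those of replicate 1 lack the D4 that the other titles carry. The protocols give the same substrate and 4 days of culture for all libraries, and whether the libraries differed in either is not known. H3WT replicate 1 stood apart from the other H3WT libraries in sex-linked genes, with Xist at 71.3 CPM against 376 and 353 CPM and the Y-linked Ddx3y at 73.4 CPM against 33.3 and 29.5 CPM. In H3K9M Xist was at 136 to 265 CPM and Ddx3y at 29.0 to 55.6 CPM. The part of the mix of male and female cells in the values below was not tested.

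Levels of different genes were compared per kilobase of exon. Mcam was highest, at 88.6 ± 28.7 CPM per kilobase (SD, n = 3) in H3WT and 97.9 ± 13.5 in H3K9M. Pdgfrb followed at 67.9 ± 13.2 and 78.4 ± 7.92 CPM per kilobase. Below these 2 surface proteins came Cspg4 (30.2 ± 11.1 and 31.9 ± 4.09) and Notch3 (26.8 ± 9.66 and 25.8 ± 3.03), in the same unit. Mcam exceeded Pdgfrb in 5 of 6 libraries and Cspg4 exceeded Notch3 in 4 of 6, so these neighbours were not separated beyond the spread of the libraries. The steps from Pdgfrb to Cspg4, from Notch3 to Abcc9 and from Abcc9 to Rgs5 had the same order in 6 of 6 libraries. Abcc9 was at 12.0 ± 1.43 and 18.9 ± 5.18 CPM per kilobase.

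Rgs5 stood far below the others, at 0.491 ± 0.150 CPM per kilobase in H3WT and 0.356 ± 0.131 in H3K9M. Only 17.9% of tested genes had a lower mean CPM than Rgs5, against 89.3% for Abcc9 and 97.5% for Pdgfrb, on the CPM scale without length. Kcnj8 and Higd1b, also known for pericytes, were as scarce. Kcnj8, which encodes the pore subunit Kir6.1, was at 0.257 ± 0.196 CPM per kilobase in H3WT and 0.352 ± 0.0804 in H3K9M. Higd1b, a mitochondrial gene of pericytes, was at 0.396 ± 0.222 and 0.222 ± 0.0935. Vtn, the gene of vitronectin and another pericyte marker, had no row in the count table. Other mural genes were not scarce: Art3 was at 23.2 ± 1.89 and 24.2 ± 1.48 CPM per kilobase, and Tbx18, which cells of epicardial origin also carry, at 14.6 ± 1.35 and 14.1 ± 1.05. The label therefore holds only in part: the receptors and surface proteins of the set were abundant, while Rgs5 was scarce. Outside the set, Kcnj8, Higd1b and Vtn were low or unlisted, but further mural genes lay on both sides. Over all libraries Foxs1, Ndufa4l2 and Cox4i2 were at 19.9, 5.98 and 3.94 CPM per kilobase, and Steap4 and Foxf2 at 0.172 and 0.119. The 6 genes are called mural markers below without assigning their RNA to pericytes.

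**Figure D1:**
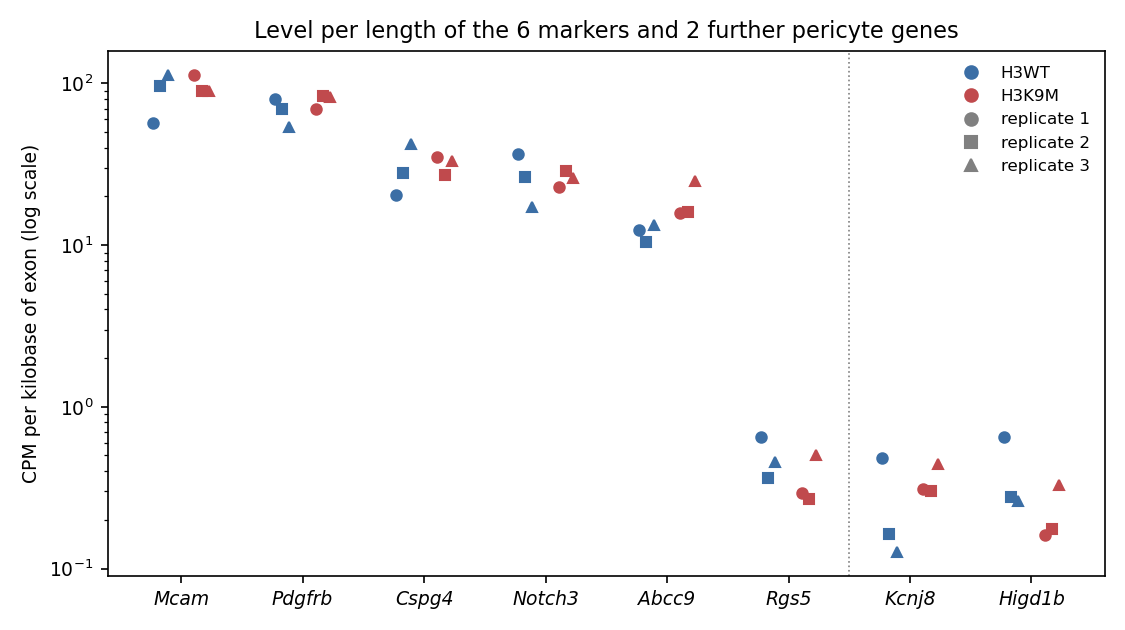
Level per length, in CPM per kilobase of exon on a log axis, of the 6 markers and, right of the dotted line, Kcnj8 and Higd1b. Points are single libraries, coloured by group and shaped by replicate number. Mcam to Abcc9 lie above 10 CPM per kilobase, while Rgs5, Kcnj8 and Higd1b lie below 1.

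None of the 6 markers passed the edgeR test, where 1.99% of all genes did (0.935% higher and 1.05% lower in H3K9M). By fold change, 4 were positive and 2 negative, with a median log2 fold change of 0.11 against -0.0024 over all tested genes. At an unadjusted p under 0.05 there was 1 member, Abcc9, beside 16.4% of all genes. DESeq2 called 1 of the 6, again Abcc9, where it called 6.8% of genes, and limma-voom called 0, where it called 1.5%. A p above the threshold does not show that a gene was equal in both groups, so each change is given with its 95% interval.

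Pdgfrb, the PDGF receptor, was at 438, 383 and 295 CPM in H3WT replicates 1, 2 and 3 and at 379.7, 459 and 449 CPM in the H3K9M replicates. The 2 groups overlapped, with the lowest value in H3WT replicate 3. Its log2 fold change was 0.21 ± 0.14 (SE), with a 95% interval from -0.12 to 0.54 and an edgeR adjusted p of 0.529. Without H3WT replicate 1 it was 0.34, without replicate 1 of both groups 0.42 and without replicate 3 of both groups 0.032, so its size rested on which libraries were compared.

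Notch3 was at 296, 215 and 140 CPM in the H3WT libraries and at 184, 233 and 209 CPM in the H3K9M libraries. The H3K9M values lay within the range of H3WT, which spanned 2.12-fold. The log2 fold change was -0.056 ± 0.23, with an interval from -0.58 to 0.47 and an edgeR adjusted p of 0.937. It turned positive without H3WT replicate 1 (0.23) and without H3K9M replicate 1 (0.025).

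Cspg4 was at 243, 335 and 503 CPM in H3WT and at 419, 326 and 397 CPM in H3K9M. Here too the H3K9M libraries lay within the H3WT range, whose lowest value was replicate 1 and highest replicate 3. The log2 fold change was 0.079 ± 0.23 (interval -0.45 to 0.60, edgeR adjusted p = 0.905). Without H3WT replicate 1 it was -0.14.

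Mcam was at 190.5, 322 and 378 CPM in H3WT and at 380.1, 301 and 303 CPM in H3K9M. H3WT replicate 1 was low and the other 5 libraries lay between 301 and 380.1 CPM, in both groups alike. The log2 fold change was 0.14 ± 0.22 (interval -0.36 to 0.65, edgeR adjusted p = 0.806), and -0.096 without H3WT replicate 1.

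Rgs5 rested on few reads, 167, 91 and 142 counts in H3WT and 78, 74 and 132 in H3K9M. These were 2.98, 1.64 and 2.09 CPM in H3WT and 1.33, 1.22 and 2.30 CPM in H3K9M. The groups overlapped, with H3K9M replicate 3 above 2 of the 3 H3WT libraries. The log2 fold change was -0.47 ± 0.37, and its interval, from -1.30 to 0.37, was the widest of the 6 (edgeR adjusted p = 0.580). Without H3WT replicate 1 the change was -0.21, and without replicate 1 of both groups -0.086.

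Abcc9 was the only one of the 6 whose groups did not overlap, where 11.3% of all genes had every H3K9M library above every H3WT library. It was at 104, 87.6 and 111 CPM in H3WT and at 133, 133 and 208 CPM in H3K9M. The lowest H3K9M value was above the highest H3WT value, and H3K9M replicate 3 stood above the other 2 libraries of its group. The group means were 101 ± 11.9 and 158 ± 43.4 CPM (SD, n = 3), a 1.57-fold difference. The log2 fold change was 0.65 ± 0.18, with an interval from 0.25 to 1.05, and an edgeR p of 0.00555 before and 0.110 after adjustment. DESeq2 gave 0.65 ± 0.17 with an adjusted p of 0.00457, which is past the threshold. The fit that left out H3K9M replicate 3 gave 0.40 ± 0.11 (edgeR adjusted p = 0.184). Over the fits that left out 1 library, or 1 replicate of both groups, it lay between 0.40 and 0.78 with edgeR adjusted p-values from 0.0923 to 0.469.

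**Figure D2:**
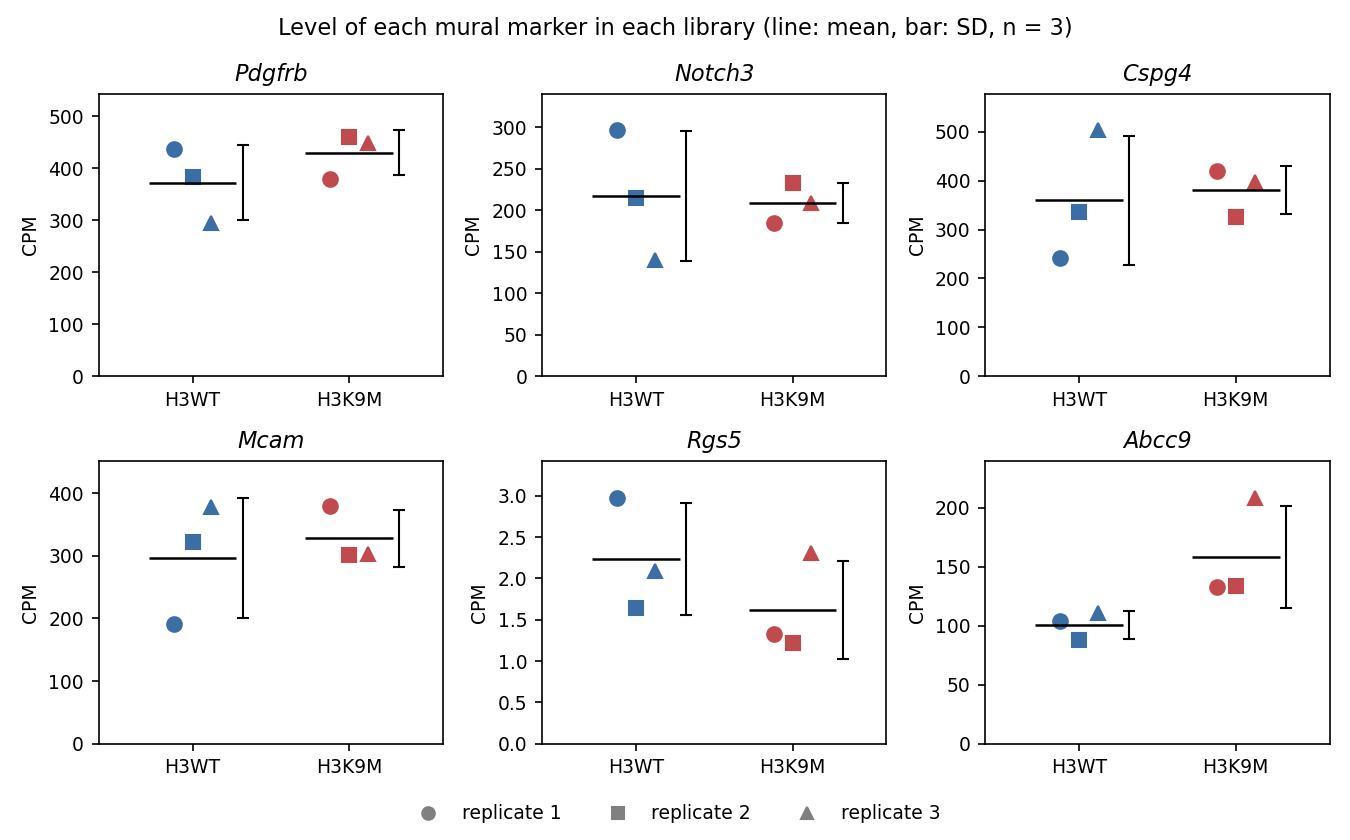
CPM of each of the 6 mural markers in each library (points, shaped by replicate number), with the group mean as a line and the SD as a bar (n = 3); every axis starts at 0. Abcc9 alone has all H3K9M libraries (133 to 208 CPM) above all H3WT libraries (87.6 to 111 CPM).

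**Figure D3:**
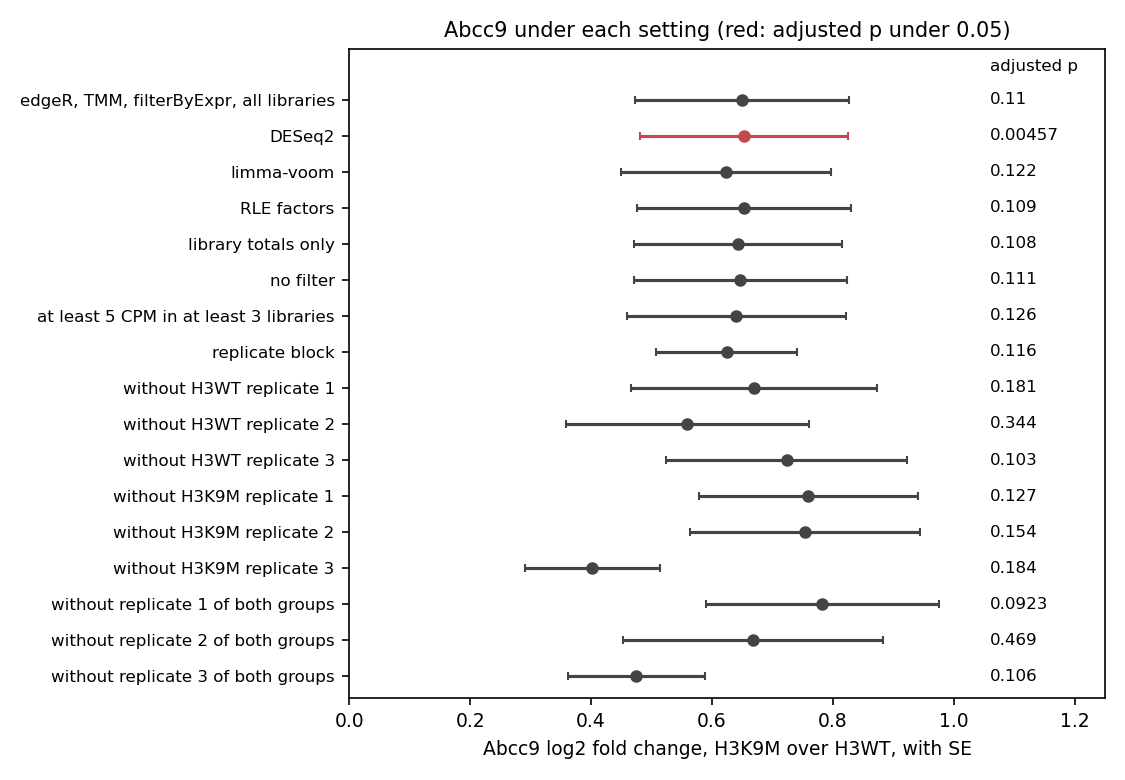
Log2 fold change of Abcc9 (H3K9M over H3WT) with its SE under the main fit, 7 other settings of the model, normalisation, filter or design, and 9 fits without libraries, with the adjusted p at the right. All values are positive, from 0.40 to 0.78, and DESeq2 alone passes the threshold.

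The 6 genes in the authors' deposited table had the same signs as here, and there 4.1% of genes passed an adjusted p of 0.05. Abcc9 was the one of the 6 that passed there, with the authors' log2 fold change of 0.62 ± 0.18 and adjusted p of 0.0181. For Rgs5 the authors' deposited table gave -0.61 ± 0.49 with an adjusted p of 0.682. The mean normalised count in the authors' deposited table was, over 14412 genes found in both tables, a median of 0.252 times the mean of the deposited counts. Which counts and libraries that table rests on is not known. It compares the same groups of the same study, so it is not read as independent evidence.

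The other subunits of the channel to which SUR2 belongs were followed because 2 pores and 2 receptors can combine. Abcc8, which encodes the receptor SUR1, rose from 7.96, 7.46 and 8.51 CPM in H3WT to 12.2, 13.2 and 15.1 CPM in H3K9M. Its log2 fold change was 0.76 ± 0.14 (edgeR adjusted p = 0.0362). That call was lost in 5 of 6 fits without 1 library, all but the fit without H3WT replicate 3, with adjusted p-values up to 0.148. Kcnj11, the pore subunit Kir6.2 of the heart muscle channel, was at 24.2, 19.6 and 21.8 CPM in H3WT and 23.5, 19.0 and 23.8 CPM in H3K9M (0.014 ± 0.13, edgeR adjusted p = 0.971). Kcnj8 lies 16.2 kb from Abcc9 on chromosome 6. It had 69, 23 and 22 counts in H3WT and 46, 47 and 65 in H3K9M, and its groups overlapped (0.46 ± 0.58, edgeR adjusted p = 0.762). Per kilobase, Kcnj8 was at 0.959% to 3.89% of Abcc9 in H3WT and at 1.79% to 1.94% in H3K9M. The log2 ratio differed by 0.064 between groups, with an exact permutation p of 1 (two-sided, n = 3 against 3, for which 0.1 is the smallest p). Of the 4 channel genes, Abcc9 included, 1 rose and 0 fell, where 0.935% of all genes rose and 1.05% fell. Their median log2 fold change was 0.55, to which Abcc9 itself contributed.

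Abcc9 is also a cardiomyocyte gene, so cardiomyocyte markers are set beside it. Of 10 such markers 0 were called, and their summed level was 24415 to 30394 CPM in H3WT and 26675 to 30477 CPM in H3K9M, which overlapped. Abcc9 was at 0.359% to 0.404% of that sum in H3WT and at 0.436% to 0.700% in H3K9M. This share reuses the Abcc9 values above, which did not overlap, so it is no separate result. Myh6 alone made 13378 to 17390 CPM of the sum, so the sum says less about the other markers. Of the 10 markers 7 had positive and 3 negative fold changes. Pln was higher (0.36 ± 0.094) and Nkx2-5 lower (-0.13 ± 0.075) with no overlap, where 22.6% of all genes did not overlap. The summed smooth muscle markers were at 6646 to 8771 CPM and 6494 to 7179 CPM. Of these 11 genes Actg2 passed the edgeR test as higher and Smtn as lower, where 1.99% of all genes passed. Without 1 library the call on Actg2 was lost in 4 of 6 fits (adjusted p up to 0.112) and that on Smtn in 5 of 6 (up to 0.184). Which cells the Abcc9 reads came from was not tested.

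PDGF signalling was described with a list of 12 ligands, receptors and partners, Pdgfrb included. None was called (1.99% of all genes were), 5 had positive and 7 negative fold changes, and the median was -0.070. Pdgfb, the gene of a ligand of PDGFRβ, was at 11.7, 9.40 and 12.1 CPM in H3WT and 16.9, 15.9 and 17.3 CPM in H3K9M. Its groups did not overlap, and the log2 fold change was 0.59 ± 0.13 (edgeR adjusted p = 0.0621). Pdgfd, another PDGF ligand gene of the list, went the other way. It was at 4.28, 4.36 and 3.60 CPM in H3WT and 1.72, 2.75 and 1.71 CPM in H3K9M. The groups of Pdgfd did not overlap either (-0.98 ± 0.26, edgeR adjusted p = 0.107). Pdgfra, the receptor typical of fibroblasts, was at 226, 148 and 87.5 CPM in H3WT and 116, 105 and 88.3 CPM in H3K9M (-0.58 ± 0.28, edgeR adjusted p = 0.360). Lrp1, a large endocytic receptor that binds PDGFRβ, was at 1488 ± 219 and 1507 ± 179 CPM. Nrp1, a coreceptor for several growth factors, was at 203, 189 and 237 CPM in H3WT and 287, 239 and 255 CPM in H3K9M, with no overlap (0.31 ± 0.11, edgeR adjusted p = 0.197). Of the 12 genes, 2 were higher and 2 lower with no overlap, where 22.6% of all genes did not overlap.

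Among 18 Notch receptors, ligands and targets 1 fell and 0 rose, 16 had negative fold changes, and the median was -0.53. Of all genes 1.05% fell and 0.935% rose, with a median of -0.0024. The gene that fell was Jag1, a ligand through which neighbouring cells activate NOTCH3. It was at 147, 118 and 101 CPM in H3WT and at 64.4, 63.1 and 75.8 CPM in H3K9M, with no overlap. Its log2 fold change was -0.85 ± 0.14 (edgeR adjusted p = 0.0254). The call was kept without H3WT replicate 1 or 3 and lost without any of the other 4 libraries (adjusted p up to 0.111). Heyl, a Notch target of mural cells, was at 54.7, 68.0 and 51.1 CPM in H3WT and 21.1, 44.3 and 42.5 CPM in H3K9M, again with no overlap (-0.69 ± 0.25, edgeR adjusted p = 0.225). Hes1, another Notch target, overlapped, at 76.8 ± 7.31 and 70.4 ± 12.8 CPM (-0.13 ± 0.14, edgeR adjusted p = 0.706). Of the 18 genes, 6 were lower and 0 higher with no overlap, where 22.6% of all genes did not overlap. Rbpj, the DNA-binding partner of all Notch receptors, was at 81.5 ± 9.07 and 94.4 ± 5.29 CPM (0.21 ± 0.094, edgeR adjusted p = 0.309). Of the 4 receptors, Notch3 had the highest level per length, 26.3 CPM per kilobase over all libraries, against 12.4 for Notch2, 5.14 for Notch1 and 1.23 for Notch4.

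Binding partners of NG2 and CD146 include collagen VI, laminin chains and galectin-3. Of 11 such genes 1 rose (0.935% of all genes did) and 0 fell, with a median of -0.023. Col6a3, the α3 chain of collagen VI, was at 365, 344 and 323 CPM in H3WT and at 726, 464 and 589 CPM in H3K9M (0.79 ± 0.15, edgeR adjusted p = 0.0420). This call was kept only without H3K9M replicate 2 among the 6 fits without 1 library (adjusted p up to 0.165 in the others). The other collagen VI chains, Col6a1 (-0.13 ± 0.21 by edgeR) and Col6a2 (-0.21 ± 0.20), were not called. Itgb1, the integrin β1 chain, was the most abundant of the list at 1931 ± 182 and 1964 ± 112 CPM. Of the R4 family of G protein regulators, to which Rgs5 belongs, 6 of 10 genes were tested, Rgs5 included. Of these 0 were called, where 1.99% of all genes were, and the median was -0.20. In that family Rgs3 had the highest CPM, 42.4 ± 4.67 in H3WT and 26.7 ± 4.80 in H3K9M (-0.67 ± 0.14, edgeR adjusted p = 0.0569).

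A list of 34 other pericyte and mural cell genes had 32 tested members, of which 1 fell (1.05% of all genes did) and 0 rose. Fold changes were positive for 12 and negative for 20, with a median of -0.098. The groups did not overlap for 8 of the 32, 3 higher and 5 lower, where 22.6% of all genes did not overlap. The gene that fell was Foxc1, a forkhead transcription factor of vessel wall development. It was at 18.0, 15.7 and 16.9 CPM in H3WT and at 11.4, 11.3 and 10.9 CPM in H3K9M, which is -0.59 ± 0.11 on the log2 scale (edgeR adjusted p = 0.0376). Its call was lost without any 1 of the 6 libraries (adjusted p from 0.0588 to 0.116). The most abundant genes of the list were Des (653 ± 114 and 921 ± 219 CPM), an intermediate filament gene that heart muscle shares, and Lhfp (310.1 to 371 and 313 to 335 CPM). Itga7, the integrin α7 chain, was at 185 ± 20.8 and 236 ± 34.3 CPM with no overlap (0.35 ± 0.12, edgeR adjusted p = 0.199). Gucy1b1, the β1 subunit of the nitric oxide receptor, was listed under its older symbol Gucy1b3, at 148, 169 and 133 CPM in H3WT and 83.2, 114 and 108 CPM in H3K9M (-0.56 ± 0.13, edgeR adjusted p = 0.0763). Its groups did not overlap, nor did those of Cox4i2, a cytochrome oxidase subunit of pericytes, at 4.38 ± 0.505 and 1.82 ± 0.569 CPM (-1.27 ± 0.28, edgeR adjusted p = 0.0630).

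**Figure D4:**
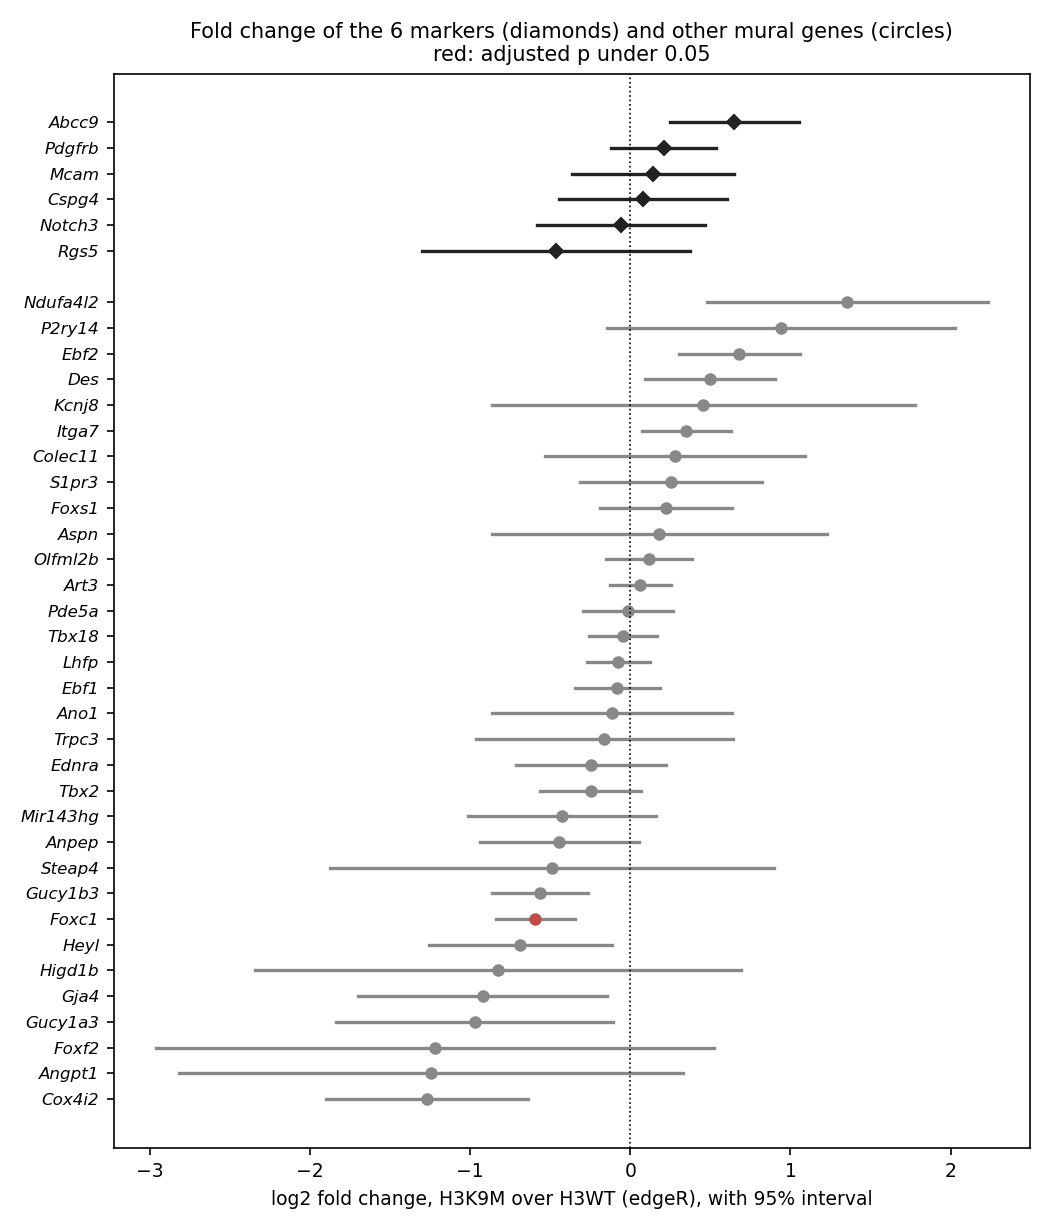
Log2 fold change of H3K9M over H3WT (edgeR) with its 95% interval for the 6 markers (diamonds, top) and 32 other mural genes (circles), sorted by value. Foxc1, in red, is the one gene past the threshold, and Abcc9 is the one marker of the 6 whose interval lies above 0.

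The markers did not vary together among the H3WT libraries. Cspg4 and Mcam were lowest in H3WT replicate 1 and highest of the group in replicate 3, while Pdgfrb and Notch3 were highest in replicate 1 and lowest in replicate 3. The ratio of Cspg4 to Notch3 counts was therefore 0.820, 1.56 and 3.59 in H3WT replicates 1, 2 and 3, against 2.28, 1.40 and 1.90 in H3K9M. All 3 H3K9M values of this ratio, which was chosen after the values were seen, lay between the lowest and highest of H3WT. The summed macrophage markers (10 of 10 tested) were at 556, 291 and 153 CPM in H3WT replicates 1, 2 and 3 and at 219.7 to 290.2 CPM in H3K9M. Of these 10 genes 0 were called, where 1.99% of all genes were. The summed fibroblast markers were at 22924, 21460 and 17165 CPM in H3WT and at 16402 to 23969 CPM in H3K9M. Of the 12 fibroblast markers 1 was called, Ddr2, as higher (0.935% of all genes were), and its call was lost in 4 of 6 fits without 1 library (edgeR adjusted p up to 0.0979). Both sums were highest in H3WT replicate 1 and lowest in replicate 3 within that group, like Notch3 and Pdgfrb. The largest parts of the fibroblast sum were Col1a1, Col1a2 and Col3a1 (5647, 5222 and 6723 CPM in H3WT replicate 1). Pdgfra, Tcf21, Col1a2, Col3a1, Dcn, Lum and Ddr2 had the order of the sum. Thy1 (344, 395 and 483 CPM in H3WT replicates 1, 2 and 3), Fbln2 (2955, 3664 and 3598) and Postn (1075, 1428 and 1334) were lowest in replicate 1. The part of both sums in the levels of the markers was not tested.

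**Figure D5:**
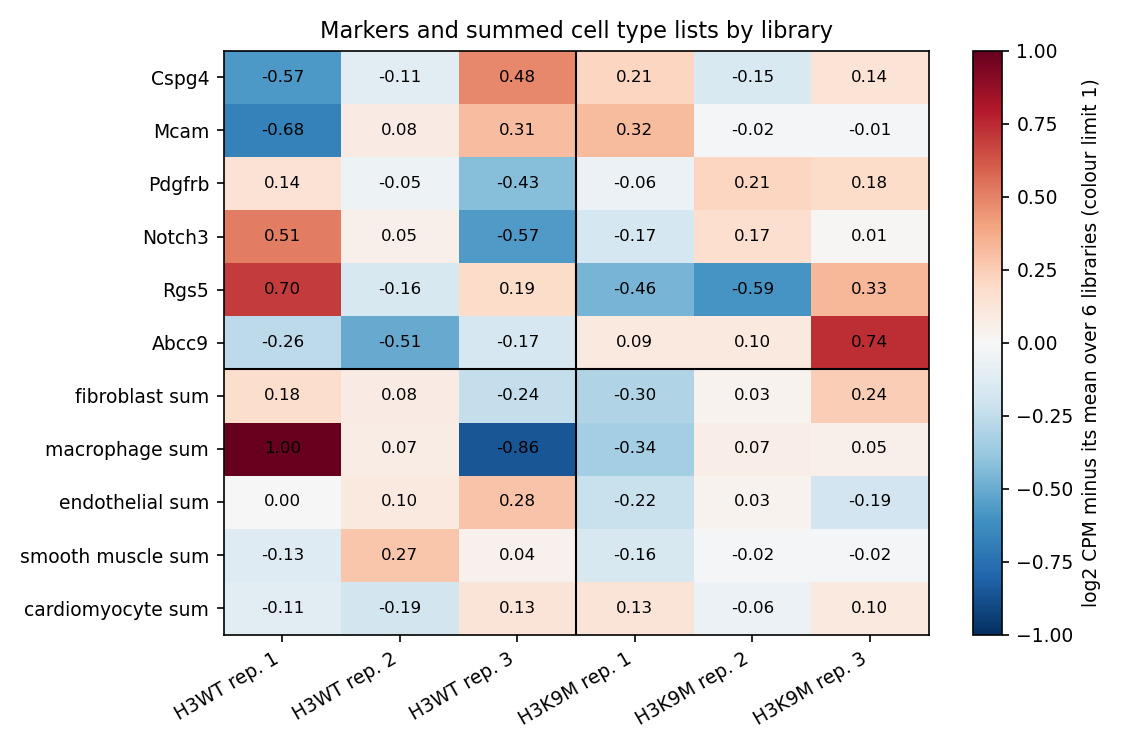
Log2 CPM minus its mean over the 6 libraries for the 6 markers (upper rows) and for summed cell type marker lists (lower rows), by library; red is above and blue below the mean. H3WT replicate 1 is low for Cspg4 (-0.57) and Mcam (-0.68) and high for Notch3 (0.51), Rgs5 (0.70) and the macrophage sum (1.00).

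Endothelial cells, the neighbours of pericytes, were followed with 18 markers, of which 2 fell (1.05% of all genes did), 0 rose and 16 had negative fold changes (median -0.60). Nos3, the endothelial nitric oxide synthase, had a mean of 9.62 ± 1.42 in H3WT against 4.75 ± 0.995 CPM in H3K9M (-1.02 ± 0.20, edgeR adjusted p = 0.0444). Its call was lost in all 6 fits without 1 library (adjusted p from 0.0753 to 0.126) and with limma-voom (0.0517). The same held with library totals as the only scaling (0.0511) and with the replicate number as a block (0.164). Robo4, a guidance receptor of endothelium, fell from 4.90, 4.86 and 3.66 CPM to 1.84, 2.22 and 2.02 CPM (-1.14 ± 0.23, edgeR adjusted p = 0.0453). Its call was lost without each library except H3WT replicate 3 (adjusted p up to 0.200), with limma-voom (0.0744) and with the replicate number as a block (0.153). The summed endothelial markers were at 589 to 715 CPM in H3WT and 504 to 601 CPM in H3K9M. Of these sums Eng alone made 301 to 345 CPM in H3WT and 315 to 343 CPM in H3K9M. It was not called (0.018 ± 0.083, edgeR adjusted p = 0.942), so the sums say less about the other markers. Mcam, which endothelial cells share, was not called. Its log2 fold change was positive in the full comparison and -0.096 without H3WT replicate 1, so its sign rested on that library. Glial and neural crest cells can also carry NG2. Of 10 such markers, Foxd3, Gfap, Olig1 and Olig2 had no row, and the other 6 summed to 8.09 to 8.98 CPM in H3WT and 8.50 to 11.4 CPM in H3K9M. Of these 6 genes 0 were called, where 1.99% of all genes were.

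For the 5 markers whose log2 CPM had an SD over 0.3 across the libraries, the genes with the most similar profile were sought among 10846 or 10847 genes of at least 5 CPM. Likeness was the root mean square difference of log2 CPM after each gene's mean was removed, over 6 libraries. Closest to Notch3 were Pdlim2 (0.0643) and Mylk (0.0669), a cytoskeletal adaptor and the myosin light chain kinase. Closest to Mcam were Aif1l (0.0685), an actin-binding protein gene, and Mrto4 (0.0733), a gene of ribosome assembly. Cspg4 was closest to Rrp12 (0.0915) and Ptprk (0.104), and Rgs5 to Fgl2 (0.132). Abcc9 was closest to 9430020K01Rik (0.109) and to Ky (0.115), a gene of muscle cytoskeleton. With 6 libraries and over 10846 candidates such neighbours describe these libraries only.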

How the data were processed

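Polyadenylated RNA of 6 cultures of embryonic mouse heart cells (3 H3WT, 3 H3K9M) was sequenced. Raw read counts per gene were deposited. Per the submitters' processing notes the tools were HISAT2, featureCounts and DESeq2, on build mm10; the sources used here give neither their versions nor the strand setting. The authors' deposited DESeq2 table holds, for each gene, the log2 fold change and its standard error, the p-value and adjusted p-value, and a signal, the mean normalised count. Its deposited Wald score was not used.

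Counts were filtered with filterByExpr (minimum 10, total 15) and tested with edgeR 4.0.16 (quasi-likelihood, TMM, group as the only term, R 4.3.3, Benjamini-Hochberg over 14758 genes). The SE is the fold change over the square root of F. Lengths are unions of GENCODE M21 exons. Log profiles used an offset of 0.125 CPM. Alternatives were DESeq2 1.42.0, limma-voom (limma 3.58.1), other factors and filters, a replicate block and left-out libraries. The steps were tested on simulated counts. Chi-square per gene between replicates was 26.4 to 118, so no library was a copy. The 6 genes and the lists were chosen with earlier results of these data known. Named are all 6 markers, called or most abundant genes of each list, and the 2 nearest profiles; not every gene so allowed is given, and 1 nearest profile of Rgs5 is not reported here. Higd1b, Vtn, Art3, Tbx18, Foxs1, Ndufa4l2, Steap4, Foxf2, Pdgfb, Pdgfd, Heyl, Hes1, Notch1, Notch4, Col6a2, Gucy1b1, Cox4i2, Pln, Nkx2-5, Tcf21, Dcn, Lum, Thy1, Fbln2, Postn, Xist and Ddx3y fall outside this rule and were chosen after values were seen.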

Additional observations from a re-analysis of the deposited data

How the results depend on the processing

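Of the 6 markers, Pdgfrb, Rgs5 and Abcc9 kept the sign of their log2 fold change in every fit run. Abcc9 passed the threshold with DESeq2 alone (log2 fold change 0.65, adjusted p = 0.00457), so the number of markers called was 1 there and 0 in all other fits, the cause of which was not tested. Without 1 library the log2 fold change ranged from 0.40 to 0.76 for Abcc9, 0.065 to 0.34 for Pdgfrb, -0.81 to -0.21 for Rgs5, -0.29 to 0.23 for Notch3, -0.14 to 0.40 for Cspg4 and -0.096 to 0.36 for Mcam. Notch3 turned sign without H3WT replicate 1 (0.23) or H3K9M replicate 1 (0.025), and Cspg4 and Mcam without H3WT replicate 1. Without replicate 1 of both groups Notch3, Cspg4 and Mcam were at 0.32, -0.22 and -0.21, and without replicate 3 of both groups at -0.29, 0.37 and 0.41. The log2 ratio of Kcnj8 to Abcc9 differed between groups by -0.39 to 0.62 without 1 library, and was negative without H3WT replicate 2 (-0.039) or 3 (-0.39). The filter of at least 5 CPM in 3 libraries left Rgs5 out. With the replicate number as a block, Notch3 was at 0.0042 and Abcc9 at 0.62 (edgeR adjusted p = 0.116), and 31 genes were higher and 27 lower over all genes, against 138 and 155. Of the list genes called in the main fit, Actg2 kept its call with this block. Foxc1, Jag1, Abcc8, Col6a3, Smtn, Nos3, Robo4 and Ddr2 lost theirs. The deviations of same-numbered libraries from their group means correlated at -0.34, 0.092 and -0.18 for replicates 1, 2 and 3. These values cannot decide whether the numbers pair the samples, since with few libraries a shared effect may lie hidden under other differences. In the titles, replicates 1 and 3 carry the same M number in both groups, and replicate 2 does not. Whether this stands for a shared preparation is not known. DESeq2 called 471 and 539 genes. Without 1 library the counts were as low as 30 and 30 (H3WT replicate 2), and without replicate 2 of both groups 0 and 0. Rgs5 had 74 to 167 counts per library, the fewest of the 6 markers.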
